A study of Mus musculus with 16 samples.

Results

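The voltage-gated sodium and calcium channel genes of the mouse were followed in primary forebrain neuronal cultures after lentiviral transduction. The members were the protein-coding genes whose GENCODE symbol begins with Scn and a digit, with Cacna or with Cacnb. This rule found 32 of the 55335 genes counted, of which 29 had enough reads to be tested. They were 10 pore-forming sodium channel genes, 4 sodium channel beta subunit genes, 10 pore-forming calcium channel genes, 4 calcium channel alpha2delta genes and 4 calcium channel beta subunit genes. RNA was sequenced from 16 libraries in 4 groups of 4. A first group carried an empty vector (Empty_Vector) and another a vector for a short hairpin RNA (shRNA, here the original hairpin). The remaining groups carried that hairpin with 2 point mutations (shRNA_2bp, the 2-base mutant) or with 5 (shRNA_5bp, the 5-base mutant). All groups, the empty vector included, were perinatal cultures that had received lentivirus, so the comparisons are between vectors and not with untransduced cells. The strain, the age beyond perinatal, the transcript that the hairpin was designed against and the culture behind each replicate were not given in the labels. P-values therefore measure the spread between these libraries, which may be technical.

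Voltage-gated sodium channels open on depolarisation and carry the rising phase of the action potential, while voltage-gated calcium channels admit the calcium that triggers transmitter release, shapes dendritic signals and reaches the nucleus. Each channel has a single large pore-forming subunit, called alpha in sodium channels and alpha1 in calcium channels. Sodium channel beta subunits are small membrane proteins that set gating and cell-surface level, calcium channel beta subunits are cytoplasmic, and alpha2delta subunits are extracellular proteins that carry calcium channels to the membrane.

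Total counts per library ran from 33795369 to 49824569, and levels are given as counts-per-million (CPM) after TMM scaling. The neuronal label was checked against marker genes. The 13 pan-neuronal markers summed to 7859 to 8395 CPM with the empty vector, 6899 to 7108 with the original hairpin, 8037 to 8574 with the 2-base mutant and 7334 to 7975 with the 5-base mutant. With the original hairpin 9 of the 13 were lower and 0 higher than with the empty vector, and the sums did not overlap. With the 2-base mutant 5 were lower and 6 higher, and with the 5-base mutant 5 and 2. Over all genes 19.5%, 30.8% and 26.5% were lower and 20.8%, 32.5% and 28.4% higher in these comparisons, in the same order. Microglial and endothelial markers each summed to under 4 CPM. Mural cell and fibroblast markers summed to 28.1 to 38 CPM with the empty vector, 29.1 to 43.1 with the original hairpin, 24.7 to 44.7 with the 2-base mutant and 24.4 to 129.5 with the 5-base mutant. Oligodendrocyte lineage markers summed to 59.3 to 71.6, 87 to 106.2, 55.4 to 62.6 and 91.7 to 110.2 CPM in the same order. Markers of inhibitory neurons differed between the groups. The summed level of the 16 inhibitory marker genes, none of them at 0, was 1304 to 1546 CPM with the empty vector, 435 to 667 with the original hairpin, 707 to 937 with the 2-base mutant and 478 to 668 with the 5-base mutant. Against the empty vector 14, 11 and 14 of these 16 genes were lower with the original hairpin and its 2-base and 5-base mutants, and 0, 2 and 0 were higher. The shares over all genes are those just given. The 13 excitatory neuron markers summed to 2110 to 2322 CPM with the empty vector, 2021 to 2085 with the original hairpin, 2183 to 2272 with the 2-base mutant and 1258 to 1340 with the 5-base mutant. For the 9 astrocyte markers the sums were 953 to 1173, 723 to 1051, 730.2 to 921 and 477 to 687 CPM in the same order. With the original hairpin and its 2-base and 5-base mutants 5, 7 and 1 excitatory markers were higher and 4, 2 and 7 lower. Of the astrocyte markers 2, 5 and 2 were lower and 0 higher with any hairpin. The RNA Gm26917 took 5.85% to 6.34% of all counts with the empty vector, 7.37% to 8.02% with the original hairpin, 10.9% to 11.5% with the 2-base mutant and 7.99% to 9.16% with the 5-base mutant. The part of these shifts in the channel results was not tested, and in bulk RNA fewer cells of a type and less RNA per cell cannot be told apart.

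More channel genes were lower than higher with each hairpin. A gene is called higher or lower where the Benjamini-Hochberg adjusted p of edgeR's quasi-likelihood test, over all 19479 genes tested, was below 0.05. With the original hairpin 2 of the 29 tested members were higher and 14 lower than with the empty vector, where 20.8% and 19.5% of all genes were called higher and lower. With the 2-base mutant 4 were higher and 23 lower, against 32.5% and 30.8% of all genes. With the 5-base mutant 4 were higher and 19 lower, against 28.4% and 26.5%. The median log2 fold change over the tested members was -0.35, -0.59 and -0.24 in these comparisons, and over all genes it was 0.014, -0.0095 and 0.029. Falls of at least 1 log2 unit, which is 2-fold, were found for 2, 8 and 5 members, where 2.22%, 10.8% and 6.13% of all genes fell that far. The 3 comparisons share the same empty vector libraries, so they are not independent of each other.

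**Figure D1:**
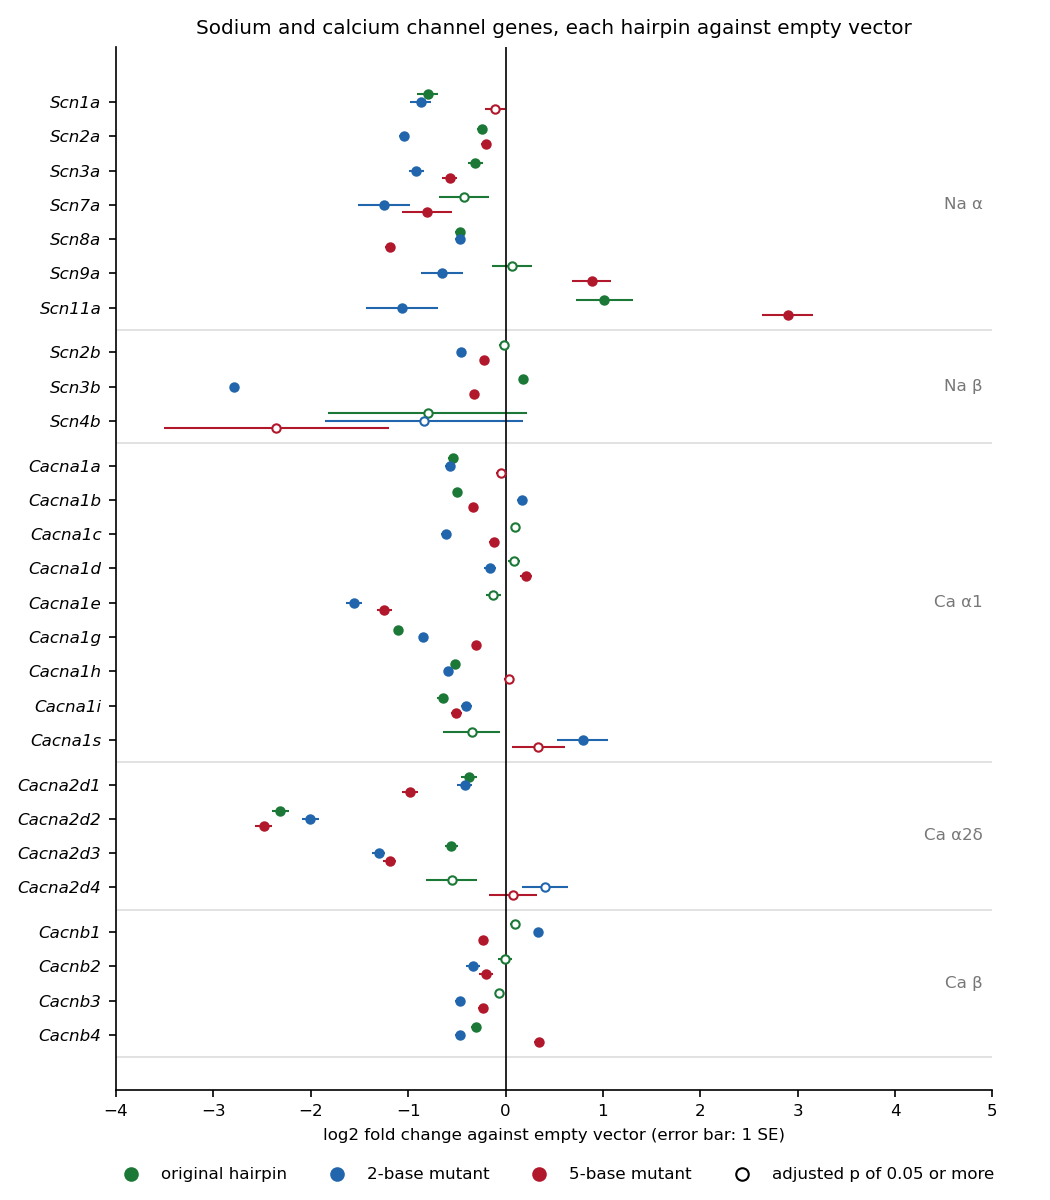
Log2 fold change of 27 tested members against the empty vector (horizontal axis) for the original hairpin and its 2-base and 5-base mutants, with bars of 1 SE; open circles had an adjusted p of 0.05 or more. Most points lie left of 0, while Scn11a with the 5-base mutant lies farthest right at 2.90 and Scn3b with the 2-base mutant farthest left at -2.78.

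The sodium channel pores of central neurons, encoded by Scn1a, Scn2a, Scn3a and Scn8a, were lower with the original hairpin and the 2-base mutant, by amounts that differed from gene to gene. Scn2a, which encodes a main sodium channel of developing excitatory neurons, had the highest pore level per length (45.9 CPM per kilobase of exon with the empty vector). Its levels in replicates 1 to 4 were 548, 587, 619 and 585 CPM with the empty vector, 458, 497, 515 and 512 with the original hairpin, 284, 277, 293 and 283 with the 2-base mutant and 457, 548, 497 and 527 with the 5-base mutant. All 4 libraries of the 2-base mutant lay far below every other library, and those of the 5-base mutant overlapped with the empty vector. The log2 fold change (± SE) of Scn2a was -1.04 ± 0.053 (edgeR adjusted p = 1.20e-13) with the 2-base mutant. The original hairpin gave -0.24 ± 0.052 (edgeR adjusted p = 7.55e-04), and the 5-base mutant -0.20 ± 0.052 (edgeR adjusted p = 0.00198). Scn8a, whose channel is concentrated at the axon initial segment and nodes of mature neurons, showed another order. Its levels were 261, 267, 275 and 269 CPM with the empty vector, 183, 192, 202 and 199 with the original hairpin, 195, 196, 188 and 194 with the 2-base mutant and 114, 132, 113 and 110.3 with the 5-base mutant. Here the 5-base mutant was lowest, and every hairpin library lay below every empty vector library. The fall was 2.28-fold with the 5-base mutant (-1.19 ± 0.049, edgeR adjusted p = 8.27e-15). Both other hairpins gave -0.47 (edgeR adjusted p = 7.77e-08 for the original hairpin and 1.65e-08 for the 2-base mutant).

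Scn1a, whose channel is known from inhibitory interneurons and whose loss causes epilepsy, was lower with 2 of the hairpins. Its levels were 74.6, 77.3, 84.8 and 71.6 CPM with the empty vector, 39.9, 42.7, 52.2 and 42.4 with the original hairpin, 40.5, 45.8, 43.5 and 39.1 with the 2-base mutant and 64.8, 89.2, 62.3 and 69.8 with the 5-base mutant. The original hairpin and 2-base mutant libraries did not overlap with the empty vector, whereas those of the 5-base mutant lay on both sides of it. The log2 fold change was -0.80 ± 0.11 (edgeR adjusted p = 1.85e-05) with the original hairpin and -0.87 ± 0.11 (edgeR adjusted p = 2.68e-06) with the 2-base mutant. With the 5-base mutant it was -0.11 ± 0.11 (edgeR adjusted p = 0.42), with an interval of 2 SE from -0.32 to 0.10. Without replicate 2 of the 5-base mutant, its highest library, it became -0.23 (edgeR adjusted p = 0.0204). The inhibitory marker sum was lower with all hairpins, that of the 5-base mutant included, and its part in the Scn1a values was not tested. Scn3a, the sodium channel pore of the embryonic brain, averaged 166 ± 11.9 CPM with the empty vector, 134 ± 8.84 with the original hairpin, 88.1 ± 4.33 with the 2-base mutant and 112 ± 15 with the 5-base mutant (SD, n = 4 each). Its log2 fold changes were -0.31, -0.92 and -0.57 with the original hairpin and its 2-base and 5-base mutants (edgeR adjusted p = 0.00353, 7.53e-09 and 4.90e-06), and no library of any hairpin reached the lowest empty vector library.

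**Figure D2:**
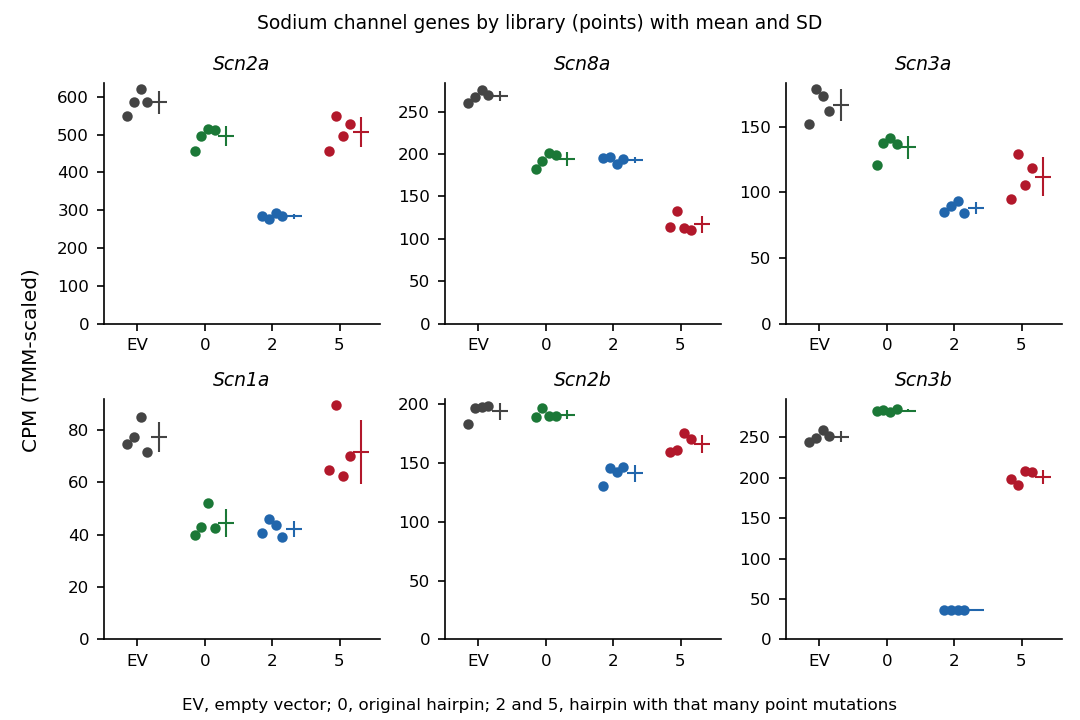
Levels in CPM of 6 sodium channel genes in the 16 libraries (points) with mean and SD (n = 4), by group. Scn3b lies at 36.1 to 37 CPM with the 2-base mutant and at 191 CPM or more in all other libraries, while Scn8a is lowest with the 5-base mutant (110.3 to 132 CPM).

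The remaining sodium channel pores, known from muscle and sensory neurons, were present at a few CPM or less, and their changes went in both directions. Scn11a, a sodium channel of pain-sensing neurons, was highest with the 5-base mutant. Its levels were 0.172, 0.357, 0.243 and 0.192 CPM with the empty vector, 0.593, 0.514, 0.435 and 0.404 with the original hairpin, 0.149, 0.0496, 0.0941 and 0.15 with the 2-base mutant and 1.63, 1.49, 1.92 and 2.19 with the 5-base mutant. The counts behind them were 6 to 12 per library with the empty vector and 69 to 86 with the 5-base mutant, whose libraries were all above every other library. The rise was 7.46-fold (2.90 ± 0.26, edgeR adjusted p = 3.12e-09). The original hairpin gave 1.01 ± 0.30 (edgeR adjusted p = 0.0084), and with the 2-base mutant, on 2 to 7 counts per library, -1.06 ± 0.37 (edgeR adjusted p = 0.016). That last call was lost without replicate 2 of the empty vector (-0.84, edgeR adjusted p = 0.0756) or replicate 2 of the 2-base mutant (-0.84, edgeR adjusted p = 0.059).

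Scn9a, another sodium channel of sensory and sympathetic neurons, averaged 1.65 ± 0.372 CPM with the empty vector, 1.71 ± 0.263 with the original hairpin, 1.04 ± 0.21 with the 2-base mutant and 3.01 ± 0.721 with the 5-base mutant (SD, n = 4 each). It was higher with the 5-base mutant (0.89 ± 0.20, edgeR adjusted p = 6.63e-04) and lower with the 2-base mutant (-0.65 ± 0.22, edgeR adjusted p = 0.0115), whose libraries overlapped with the empty vector. Scn9a was not called with the original hairpin (0.065 ± 0.21, edgeR adjusted p = 0.837). The summed level of 7 sensory neuron markers was 13.6 to 14.8 CPM with the empty vector, 17.9 to 20.8 with the original hairpin, 7.51 to 8.44 with the 2-base mutant and 24.2 to 29.2 with the 5-base mutant. None of these markers was at 0 in all libraries, and of the 6 tested with the 5-base mutant 1 (Prph, peripherin, a neuronal intermediate filament) was higher and 4 were lower. Over all genes 28.4% were higher and 26.5% lower with that mutant. The part of these markers in the Scn9a and Scn11a values was not tested. Scn7a, a sodium-sensing relative that is not gated by voltage in the usual way, was measured at 0.718, 0.655, 1.37 and 1.25 CPM with the empty vector, 0.593, 0.538, 0.973 and 0.908 with the original hairpin, 0.491, 0.347, 0.376 and 0.472 with the 2-base mutant and 0.567, 0.549, 0.639 and 0.561 with the 5-base mutant. The libraries of the mutants lay below those of the empty vector, and those of the original hairpin overlapped with it. Scn7a was lower with the 2-base mutant (-1.25 ± 0.27, edgeR adjusted p = 3.30e-04) and with the 5-base mutant (-0.81 ± 0.26, edgeR adjusted p = 0.0115). The latter was lost without replicate 3 of the empty vector (-0.61, edgeR adjusted p = 0.0699). Scn7a was not called with the original hairpin (-0.43 ± 0.25, edgeR adjusted p = 0.195). Scn4a, the sodium channel of skeletal muscle, had 18 counts over all 16 libraries and Scn10a, of sensory neurons, had 19, so neither was tested.

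**Figure D3:**
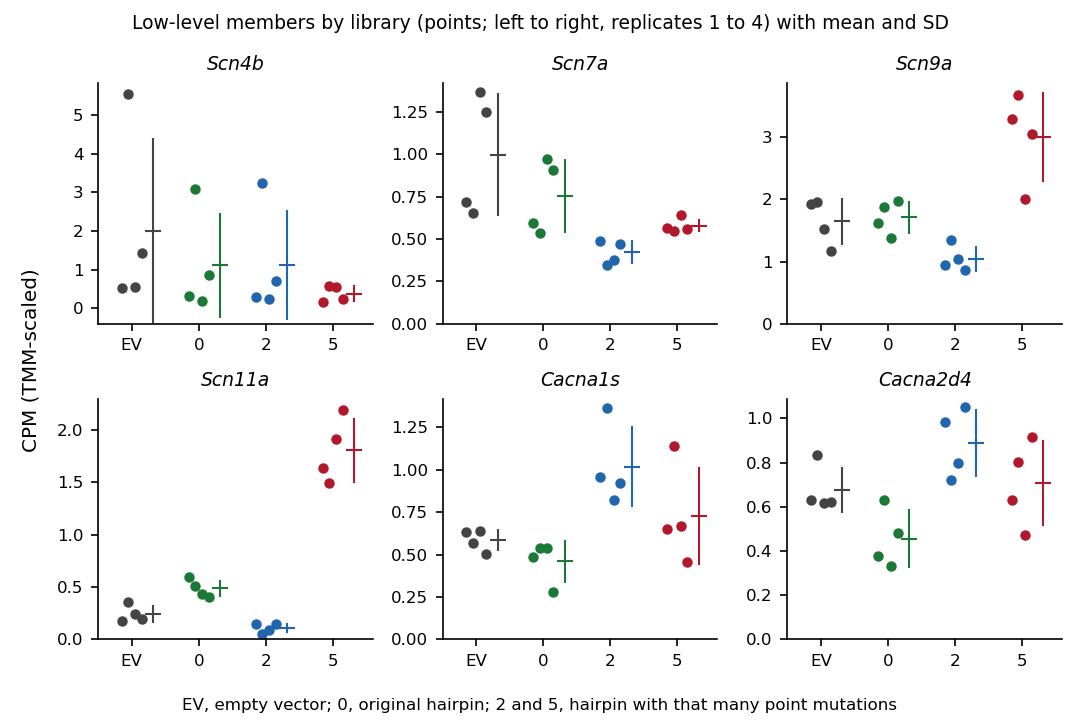
Levels in CPM of 6 members with few reads in each library (points, replicates 1 to 4 from left to right within a group) with mean and SD (n = 4). Scn11a and Scn9a are highest with the 5-base mutant, and the highest Scn4b point in each group is replicate 2.

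Among the sodium channel beta subunits, Scn3b fell with the 2-base mutant. Scn3b, a beta subunit bound to the pore without a covalent bond, had the highest beta subunit level per length with the empty vector (46 CPM per kilobase). Its levels were 244, 249, 259 and 252 CPM with the empty vector, 282, 283, 282 and 285 with the original hairpin, 36.2, 36.4, 36.1 and 37 with the 2-base mutant and 198, 191, 208 and 208 with the 5-base mutant. Replicates lay close together, and the 2-base mutant libraries stood apart from all others. The fall was 6.89-fold (-2.78 ± 0.039, edgeR adjusted p = 1.86e-22). Scn3b was slightly higher with the original hairpin (0.17 ± 0.036, edgeR adjusted p = 4.30e-04) and with the 5-base mutant slightly lower (-0.32 ± 0.036, edgeR adjusted p = 9.36e-08).

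Scn2b, whose product is linked to the pore by a disulfide bond, averaged 194 ± 7.1 CPM with the empty vector, 191 ± 3.53 with the original hairpin, 141 ± 7.21 with the 2-base mutant and 166 ± 7.61 with the 5-base mutant (SD, n = 4 each). It was lower with the 2-base mutant (-0.46, edgeR adjusted p = 4.84e-09) and the 5-base mutant (-0.22, edgeR adjusted p = 1.47e-04). Its difference with the original hairpin had an interval of 2 SE from -0.11 to 0.066 on the log2 scale. Scn4b, known from striatal and Purkinje neurons, varied more within groups than between them. Its levels were 0.517, 5.54, 0.552 and 1.44 CPM with the empty vector, 0.323, 3.09, 0.179 and 0.858 with the original hairpin, 0.299, 3.25, 0.235 and 0.709 with the 2-base mutant and 0.152, 0.569, 0.556 and 0.255 with the 5-base mutant. Replicate 2 was highest in every group, and no comparison with the empty vector was called. The log2 fold change was -0.80 ± 1.02 (edgeR adjusted p = 0.578) with the original hairpin, -0.84 ± 1.02 (edgeR adjusted p = 0.497) with the 2-base mutant and -2.35 ± 1.16 (edgeR adjusted p = 0.104) with the 5-base mutant. DESeq2 called the last of these (-2.41, DESeq2 adjusted p = 0.0367). With all genes that had a count in the fit, all 3 were called (edgeR adjusted p = 0.00238, 5.81e-04 and 1.71e-19), and without replicate 2 of the empty vector the first 2 turned positive (0.43 and 0.39). A sum over 9 striatal projection neuron genes, chosen after the Scn4b values were seen, was also highest in replicate 2 of every group. It was 260.4, 268, 262 and 264 CPM there, and 168 to 221 CPM in all other libraries. Of its genes, Pde10a and Ppp1r1b were highest in replicate 2 of every group, whereas Drd1, Tac1 and Penk were not. The part of this sum in the Scn4b values was not tested.

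The pores of the high-voltage-activated calcium channels changed by subtype. Cacna1b, which encodes the N-type channel of presynaptic terminals, had the highest calcium pore level per kilobase of exon union with the empty vector (31 CPM per kilobase). The union was 9942 bases for Cacna1b and 25228 for Cacna1e, whose CPM was higher, so this order depends on the length used. Levels of Cacna1b were 298, 304, 317 and 315 CPM with the empty vector, 213, 208, 230.5 and 225 with the original hairpin, 348, 334, 351 and 351 with the 2-base mutant and 232, 263, 236 and 247 with the 5-base mutant. The 2-base mutant libraries were above all others, and those of the original hairpin and the 5-base mutant were below the empty vector. For Cacna1b the log2 fold change was -0.49 ± 0.044 (edgeR adjusted p = 8.16e-09) with the original hairpin and -0.34 ± 0.044 (edgeR adjusted p = 9.01e-07) with the 5-base mutant. With the 2-base mutant it was 0.16 ± 0.044 (edgeR adjusted p = 0.00237), and in a fit of protein-coding genes alone it was 0.10 (edgeR adjusted p = 0.0519). Cacna1e, which encodes the R-type channel of dendrites and terminals, was measured at 549, 614, 641 and 604 CPM with the empty vector, 468, 543, 598 and 599.9 with the original hairpin, 205, 207, 213 and 195 with the 2-base mutant and 225, 295, 243 and 253 with the 5-base mutant. The highest library of the mutants, at 295 CPM, lay below the lowest of the other groups, at 468 CPM. Cacna1e fell by 2.94-fold with the 2-base mutant (-1.55 ± 0.083, edgeR adjusted p = 1.40e-11) and 2.37-fold with the 5-base mutant (-1.24 ± 0.082, edgeR adjusted p = 4.63e-10). The original hairpin gave -0.12 ± 0.08 (edgeR adjusted p = 0.24), with an interval of 2 SE from -0.29 to 0.036, and with all genes that had a count in the fit it was called (edgeR adjusted p = 0.0425).

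Cacna1a, which encodes the P/Q-type channel of fast synapses, averaged 217 ± 7.36 CPM with the empty vector, 149 ± 13.8 with the original hairpin, 146 ± 4.91 with the 2-base mutant and 209.7 ± 9.37 with the 5-base mutant (SD, n = 4 each). It was lower with the original hairpin (-0.54, edgeR adjusted p = 3.08e-08) and the 2-base mutant (-0.57, edgeR adjusted p = 3.01e-09), and with the 5-base mutant the difference was -0.047 (edgeR adjusted p = 0.48). Of the L-type channels, which couple activity to transcription, Cacna1c averaged 220.2 ± 6.9 CPM with the empty vector, 236 ± 14.8 with the original hairpin, 144 ± 2.63 with the 2-base mutant and 203 ± 13.8 with the 5-base mutant (SD, n = 4 each). It was lower with the 2-base mutant (-0.61 ± 0.049, edgeR adjusted p = 2.78e-10). With the 5-base mutant, whose libraries overlapped with the empty vector, its call (-0.12, edgeR adjusted p = 0.0473) was lost on leaving out any of 11 libraries. The log2 fold change was nearest 0 without replicate 1 of that hairpin (-0.084). With the original hairpin it was 0.10 (edgeR adjusted p = 0.107), and without its replicate 1 0.14 (edgeR adjusted p = 0.0267). Cacna1d, the other neuronal L-type pore, averaged 95.6 ± 4.36 CPM with the empty vector, 101 ± 4.72 with the original hairpin, 85.7 ± 2.065 with the 2-base mutant and 110.7 ± 12.6 with the 5-base mutant (SD, n = 4 each). It was higher with the 5-base mutant (0.21 ± 0.06, edgeR adjusted p = 0.00448), whose libraries overlapped with the empty vector, and by 0.14 without replicate 2 of that mutant. Cacna1d was lower with the 2-base mutant (-0.16 ± 0.06, edgeR adjusted p = 0.0271), a call lost without replicate 1 or 2 of the empty vector or replicate 1 or 4 of the 2-base mutant. Its level with the original hairpin differed by 0.084 (edgeR adjusted p = 0.29).

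The L-type pores of skeletal muscle and retina were scarce. Cacna1s, of skeletal muscle, averaged 0.585 ± 0.0638 CPM with the empty vector, 0.46 ± 0.124 with the original hairpin, 1.02 ± 0.238 with the 2-base mutant and 0.729 ± 0.288 with the 5-base mutant (SD, n = 4 each) and was called higher with the 2-base mutant (0.79 ± 0.27, edgeR adjusted p = 0.0129), a call lost without replicate 2 of that hairpin (0.62, edgeR adjusted p = 0.0587). It was not called with the original hairpin (-0.35, edgeR adjusted p = 0.375) or the 5-base mutant (0.34, edgeR adjusted p = 0.317). An antisense gene, Gm37759, shares 20% of the exon bases of Cacna1s, and whether the counting used strand was not stated, so these reads cannot be assigned with certainty. Cacna1f, of photoreceptors, had 76 counts over the 16 libraries and was not tested.

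All 3 T-type pores, which open at low voltage and support burst firing, were lower with the original hairpin and the 2-base mutant. Cacna1g was measured at 93.8, 92.7, 95.9 and 90.9 CPM with the empty vector, 42.9, 46.2, 41.9 and 42.5 with the original hairpin, 50.6, 50.5, 52.2 and 53.7 with the 2-base mutant and 71.4, 79.6, 75.3 and 75.4 with the 5-base mutant. The 4 groups did not overlap with each other. Its log2 fold change was -1.11 ± 0.043 (edgeR adjusted p = 1.23e-14) with the original hairpin, -0.85 ± 0.042 (edgeR adjusted p = 9.25e-14) with the 2-base mutant and -0.31 ± 0.042 (edgeR adjusted p = 1.65e-06) with the 5-base mutant. Cacna1h averaged 93.5 ± 6.02 CPM with the empty vector, 65.5 ± 2.35 with the original hairpin, 62.3 ± 2.4 with the 2-base mutant and 95.8 ± 4.22 with the 5-base mutant (SD, n = 4 each). It was lower with the original hairpin (-0.51, edgeR adjusted p = 1.75e-08) and the 2-base mutant (-0.59, edgeR adjusted p = 4.60e-10), while with the 5-base mutant the interval of 2 SE ran from -0.061 to 0.13. Cacna1i averaged 123 ± 9.66 CPM with the empty vector, 78.8 ± 6.37 with the original hairpin, 93.3 ± 4.91 with the 2-base mutant and 86.8 ± 2.64 with the 5-base mutant (SD, n = 4 each), and its log2 fold changes were -0.65, -0.40 and -0.51 (edgeR adjusted p = 8.61e-09, 2.22e-06 and 1.19e-07).

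**Figure D4:**
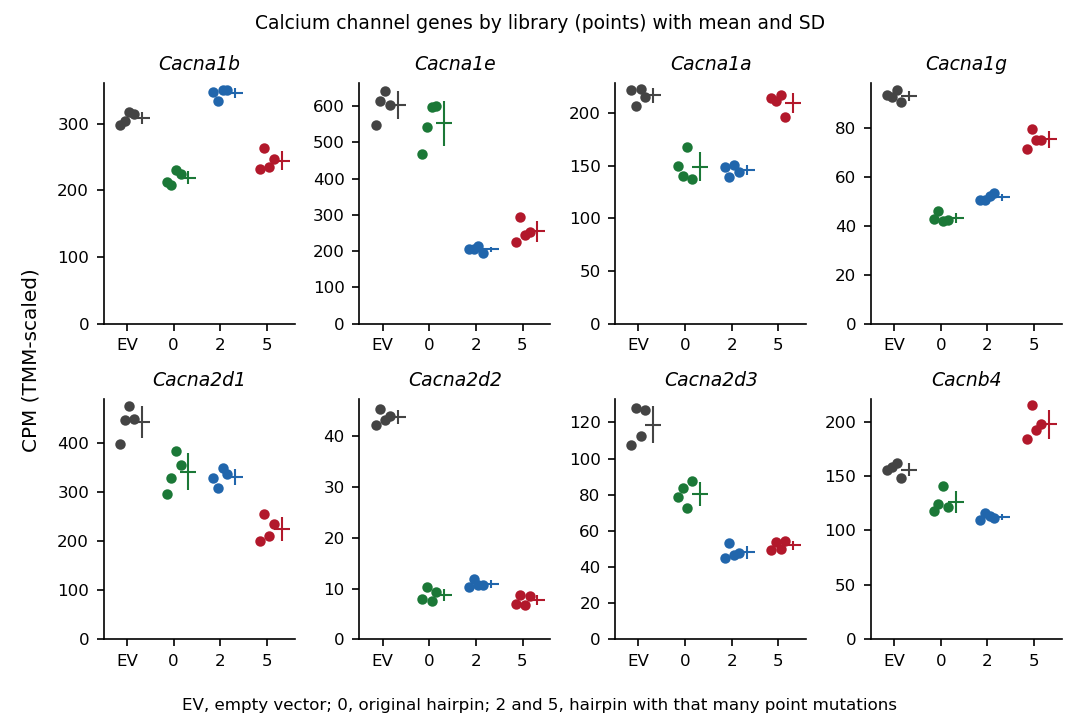
Levels in CPM of 8 calcium channel genes in the 16 libraries (points) with mean and SD (n = 4), by group. Cacna2d2 lies at 42.3 to 45.4 CPM with the empty vector and at 12 CPM or less in all hairpin libraries, and Cacna1e is at 295 CPM or less in all libraries of the mutants.

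The largest fall of a calcium channel gene was in an alpha2delta gene, Cacna2d2. Cacna2d1, Cacna2d2 and Cacna2d3 encode extracellular subunits, of which the first 2 bind gabapentin. These 3 genes were lower with each hairpin, as were other members, among them Cacna1i, Scn2a and Scn8a. The promoters of the 3 genes, from 250 bases before to 50 after the RefSeq start on GRCm38.p6, are shown as examples. Each is written from 5′ to 3′ on the strand of its gene, at chr5:15934441-15934740 (plus strand), chr9:107399630-107399929 (plus strand) and chr14:29721815-29722114 (minus strand). Capitals mark the GC box GGGCGG or its complement CCGCCC, which occurs 7, 1 and 6 times in them.
Cacna2d1: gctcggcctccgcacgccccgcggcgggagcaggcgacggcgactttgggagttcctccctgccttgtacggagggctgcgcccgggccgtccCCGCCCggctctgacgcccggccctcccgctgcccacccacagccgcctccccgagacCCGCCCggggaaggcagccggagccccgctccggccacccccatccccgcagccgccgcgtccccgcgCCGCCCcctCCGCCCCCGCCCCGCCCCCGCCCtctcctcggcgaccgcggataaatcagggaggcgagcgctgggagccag
Cacna2d2: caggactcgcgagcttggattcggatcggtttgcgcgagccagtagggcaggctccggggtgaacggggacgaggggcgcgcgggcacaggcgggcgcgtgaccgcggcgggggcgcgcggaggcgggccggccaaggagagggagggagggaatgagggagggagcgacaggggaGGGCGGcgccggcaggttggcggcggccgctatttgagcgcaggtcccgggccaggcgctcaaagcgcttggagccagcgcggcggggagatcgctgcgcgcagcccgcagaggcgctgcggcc
Cacna2d3: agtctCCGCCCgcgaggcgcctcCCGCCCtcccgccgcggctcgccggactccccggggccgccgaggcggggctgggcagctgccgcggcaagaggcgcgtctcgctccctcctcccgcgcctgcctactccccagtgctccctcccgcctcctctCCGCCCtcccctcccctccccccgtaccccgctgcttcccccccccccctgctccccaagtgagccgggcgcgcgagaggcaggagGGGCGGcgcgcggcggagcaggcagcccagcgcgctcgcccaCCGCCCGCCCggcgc
Their GC contents are 80%, 75.7% and 81.3%. The GC box was present in 14 of 34 promoters of 24 members with an entry, and in 35.7% of the 32851 promoters in the table. It was absent from the promoters of Cacna1i, Scn2a and Scn8a. Cacna1c and Cacna1d each had a promoter with 6, while their other promoters had 0. Neither gene was called with the original hairpin. With the mutants both were called, Cacna1c lower with each and Cacna1d in opposite directions. Whether the GC box has a part in any of these changes was not tested. No match to TTCAGCACC, the left part of the RE1 element bound by the repressor REST, was found in the 34 promoters on either strand, against 0.371% of all promoters. With so rare a motif that outcome was likely for any 34 promoters. A stretch of the right part of RE1, GGACAG, was found in 3 of the 34 (Cacnb1, Cacnb3 and Scn8a, 8.82%) and in 22.2% of all promoters. Sequence outside this window was not searched. Whether the members have RE1 elements was therefore not tested.

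Cacna2d2 (gene at chr9:107399612-107529343 on GRCm38) is known from cerebellar and inhibitory neurons and is mutated in the ducky mouse. Its levels were 42.3, 45.4, 43.3 and 44 CPM with the empty vector, 7.95, 10.2, 7.63 and 9.31 with the original hairpin, 10.3, 12, 10.6 and 10.7 with the 2-base mutant and 7, 8.83, 6.78 and 8.54 with the 5-base mutant. The highest hairpin library, at 12 CPM, lay far below the lowest empty vector library. The fall was 4.97-fold with the original hairpin (-2.31 ± 0.088, edgeR adjusted p = 1.23e-14), 4.01-fold with the 2-base mutant (-2 ± 0.086, edgeR adjusted p = 8.97e-15) and 5.6-fold with the 5-base mutant (-2.48 ± 0.089, edgeR adjusted p = 8.85e-16). The inhibitory marker sum was also lower in every hairpin library than in every empty vector library. Its part in the Cacna2d2 values was not tested. Cacna2d3, a presynaptic subunit, was measured at 107, 128, 113 and 127 CPM with the empty vector, 78.7, 83.5, 72.4 and 87.6 with the original hairpin, 44.8, 53.2, 46.8 and 47.6 with the 2-base mutant and 49.5, 53.9, 50.1 and 54.4 with the 5-base mutant. Each hairpin lay below the empty vector in every library, and both mutants lay below the original one. For Cacna2d3 the change was -0.56 ± 0.065 (edgeR adjusted p = 6.60e-07) with the original hairpin, -1.30 ± 0.067 (edgeR adjusted p = 4.10e-13) with the 2-base mutant and -1.19 ± 0.067 (edgeR adjusted p = 3.09e-12) with the 5-base mutant.

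Cacna2d1, which promotes synapse formation through thrombospondin binding, had the highest alpha2delta level per length (35.6 CPM per kilobase with the empty vector). Its levels were 398, 446, 476 and 449.6 CPM with the empty vector, 297, 329, 384 and 356 with the original hairpin, 329, 309, 349 and 336 with the 2-base mutant and 199, 255, 209.8 and 236 with the 5-base mutant. No hairpin library reached the lowest empty vector library, and the 5-base mutant libraries were the lowest. For Cacna2d1 the change was -0.37 ± 0.081 (edgeR adjusted p = 0.00123) with the original hairpin, -0.42 ± 0.081 (edgeR adjusted p = 2.04e-04) with the 2-base mutant and -0.98 ± 0.082 (edgeR adjusted p = 1.36e-08) with the 5-base mutant. Cacna2d4, known from the retina, averaged 0.677 ± 0.105 CPM with the empty vector, 0.455 ± 0.133 with the original hairpin, 0.888 ± 0.155 with the 2-base mutant and 0.707 ± 0.195 with the 5-base mutant (SD, n = 4 each). It was not called against the empty vector (-0.55, 0.40 and 0.077, edgeR adjusted p = 0.0974, 0.148 and 0.814), but without replicate 2 of the original hairpin it was lower with that hairpin (-0.76, edgeR adjusted p = 0.0393).

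The cytoplasmic beta subunits, which all high-voltage-activated channels can share, changed by under 0.5 log2 units in every comparison with the empty vector. Cacnb3 had the highest level per length (30.9 CPM per kilobase with the empty vector). Its levels were 122, 124, 125 and 124 CPM with the empty vector, 123, 123, 112 and 116 with the original hairpin, 83.5, 92.5, 91.3 and 89.5 with the 2-base mutant and 103, 98.4, 111 and 109 with the 5-base mutant. The mutants lay below the empty vector in every library, the 2-base mutant further than the 5-base mutant, and the original hairpin libraries overlapped with it. Its log2 fold change was -0.47 ± 0.045 (edgeR adjusted p = 5.07e-09) with the 2-base mutant, -0.24 ± 0.045 (edgeR adjusted p = 1.13e-04) with the 5-base mutant and -0.066 ± 0.045 (edgeR adjusted p = 0.26) with the original hairpin. Cacnb4, the subunit mutated in the lethargic mouse, averaged 156 ± 5.7 CPM with the empty vector, 126 ± 10.2 with the original hairpin, 113 ± 2.83 with the 2-base mutant and 197 ± 13.5 with the 5-base mutant (SD, n = 4 each). Cacnb4 was lower with the original hairpin (-0.30, edgeR adjusted p = 7.82e-05) and the 2-base mutant (-0.47, edgeR adjusted p = 7.90e-08) and higher with the 5-base mutant (0.34, edgeR adjusted p = 9.62e-06). A gene on the opposite strand, A430018G15Rik, shares 16% of its exon bases. Cacnb1, the muscle and brain isoform, averaged 123 ± 4.31 CPM with the empty vector, 131 ± 5.75 with the original hairpin, 155 ± 4.08 with the 2-base mutant and 105 ± 6.06 with the 5-base mutant (SD, n = 4 each). It was higher with the 2-base mutant (0.34, edgeR adjusted p = 7.82e-07) and lower with the 5-base mutant (-0.23, edgeR adjusted p = 1.53e-04). With the original hairpin it was 0.093 (edgeR adjusted p = 0.103), and 0.12 without its replicate 3 (edgeR adjusted p = 0.0485). Cacnb2, known from the heart, averaged 30.8 ± 1.64 CPM with the empty vector, 30.7 ± 0.932 with the original hairpin, 24.4 ± 1 with the 2-base mutant and 26.8 ± 3.57 with the 5-base mutant (SD, n = 4 each) and was lower with the 2-base mutant (-0.33, edgeR adjusted p = 2.05e-04). Its fall with the 5-base mutant (-0.20, edgeR adjusted p = 0.0172) was lost without replicate 3 of the empty vector or replicate 3 or 4 of that hairpin and was -0.30 without its replicate 2.

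Levels were also summed over 4 subunit classes per kilobase of exon. Pore-forming sodium channel genes summed to 83.8 ± 3.88 CPM per kilobase with the empty vector, 66.4 ± 3.63 with the original hairpin, 45.6 ± 0.680 with the 2-base mutant and 63.4 ± 5.70 with the 5-base mutant (SD, n = 4 each). The alpha2delta genes summed to 54.8 ± 3.37, 37.9 ± 2.89, 33.6 ± 1.03 and 25.1 ± 2.43 CPM per kilobase in the same order. Pore-forming calcium channel genes summed to 123 ± 3.89, 95.2 ± 5.18, 90.4 ± 1.44 and 97.6 ± 4.53. The calcium channel beta subunits summed to 77.7 ± 0.888 with the empty vector and to between 70.9 ± 0.773 and 74.8 ± 1.89 with the hairpins. These sums were not tested. Cacna1b held 25.2% of the calcium pore CPM per kilobase with the empty vector and 38.5% with the 2-base mutant, while Cacna1e held 19.4% and 9%. Scn8a held 20.3% of the sodium pore CPM per kilobase with the empty vector and 11.8% with the 5-base mutant. These shares depend on the exon unions used as lengths and are not shares of RNA molecules.

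**Figure D5:**
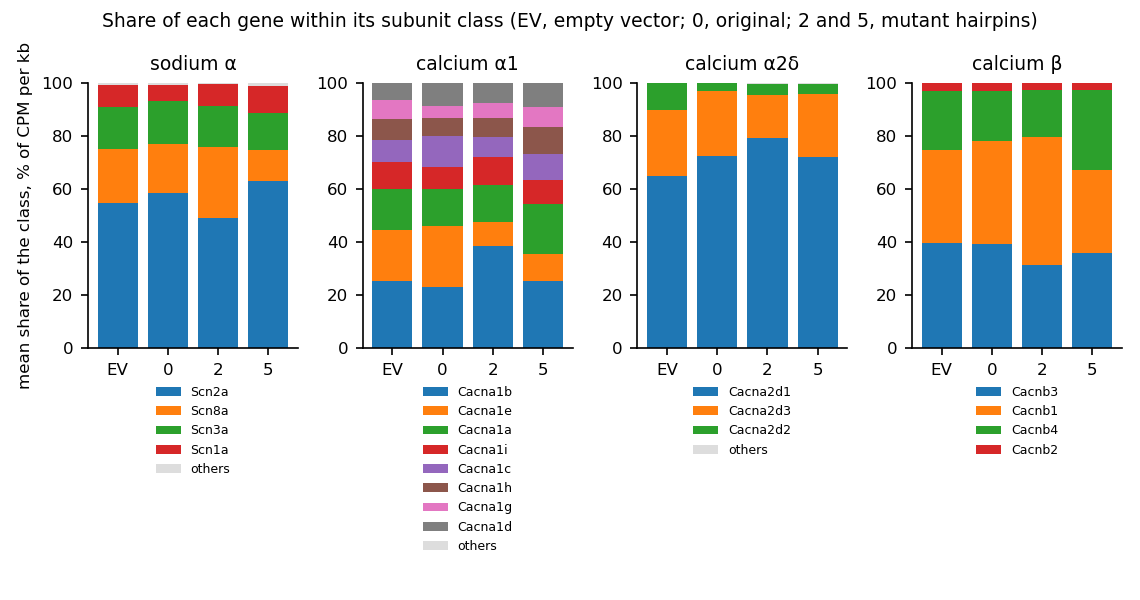
Mean share of each gene in the CPM per kilobase of 4 subunit classes, in percent (vertical axis), for the empty vector (EV) and the hairpins with 0, 2 and 5 mutations (n = 4 libraries each). In the calcium alpha1 class Cacna1e shrinks from 19.4% to 9% and Cacna1b grows from 25.2% to 38.5% with the 2-base mutant.

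The hairpins also differed from each other. With the 2-base mutant 8 of 29 members were higher and 15 lower than with the original hairpin, where 31.5% and 31.2% of all genes were called higher and lower. With the 5-base mutant 11 were higher and 13 lower than with the original hairpin, against 28.5% and 26.8%. With the 5-base mutant 16 were higher and 6 lower than with the 2-base mutant, against 33.6% and 32.3%. Scn3b was 7.77-fold lower with the 2-base mutant than with the original hairpin (-2.96 ± 0.039, edgeR adjusted p = 6.12e-23) and 5.52-fold higher with the 5-base mutant than with the 2-base mutant (2.46 ± 0.039, edgeR adjusted p = 4.26e-22). Scn11a was 3.69-fold higher with the 5-base mutant than with the original hairpin (1.88 ± 0.23, edgeR adjusted p = 4.29e-07). Cacna1e separated both mutants from the original one, by -1.43 for the 2-base mutant (edgeR adjusted p = 4.11e-11) and -1.12 for the 5-base mutant (edgeR adjusted p = 1.81e-09). Cacna1a, Cacna1h and Scn1a were higher with the 5-base mutant than with the original hairpin (0.50, 0.55 and 0.69, edgeR adjusted p = 4.37e-08, 2.13e-09 and 4.15e-05). For Cacna2d2, the difference between the 5-base mutant and the original hairpin was -0.17 ± 0.093 (edgeR adjusted p = 0.126). Scn8a differed by -0.0047 between the 2-base mutant and the original hairpin, with an interval of 2 SE from -0.10 to 0.092.

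Several members are neighbours in the genome and most are long, features that the rule for choosing them did not use. Scn3a (chr2:65457118-65567627, minus strand), Scn2a (chr2:65620771-65767447, plus strand), Scn1a (chr2:66270778-66440840, minus strand), Scn9a (chr2:66480080-66634962, minus strand) and Scn7a (chr2:66673425-66784914, minus strand) lie in this order on chromosome 2 of GRCm38. The widest gap between them is that from Scn2a to Scn1a. With the 5-base mutant Scn9a was higher while Scn3a, Scn2a and Scn7a were lower. Scn10a (chr9:119608456-119719322) and Scn11a (chr9:119753759-119825456) lie together on the minus strand of chromosome 9. A genomic span of over 100 kilobases was found for 19 of the 32 members. Of the 18 of these that were tested, 11, 16 and 12 were lower with the original hairpin and its 2-base and 5-base mutants, while 35.3%, 46.6% and 42.1% of the 2305 tested protein-coding genes of that span were lower. Of the 11 tested members of shorter span, 3, 7 and 7 were lower, against 21.2%, 29.7% and 29.4% of the protein-coding genes of shorter span.

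The series concerns microRNAs in neurons, so the 3′ UTRs were searched for seed matches of 2 microRNAs that are known to be abundant in brain. Their mature sequences from RefSeq (GRCm38.p6) are shown with bases 2 to 8, the seed, in capitals.
mmu-miR-9-5p: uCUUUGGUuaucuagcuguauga
mmu-miR-128-3p: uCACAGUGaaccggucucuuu
The match ACCAAAG of the first was found in the longest annotated 3′ UTR of 8 of 29 members, and in 14.3% of the 14246 UTRs of tested genes. The match CACTGTG of the second was found in 8 of 29 members and in 22.9% of all. These shares were not adjusted for UTR length, and a longer UTR holds more matches by chance. Besides Cacna1e, the miR-9 match was in Cacna1c, Cacna1h, Cacna2d1, Cacna2d4, Cacnb2, Scn2b and Scn4b. Of these, Cacna2d4 and Scn4b were not called with any hairpin in the fit reported here. Both rest on few counts (13 to 49 and 7 to 186 per library), and Scn4b was called in other fits, as given above. A site in Cacna1e (chr1:154396363-154396392, minus strand), which was at least 2-fold lower with both mutants, is shown for miR-9 with the match in capitals.
Cacna1e: gtcagccccaaACCAAAGtcatcccataac
A match describes the letters of the UTR. The levels of the microRNAs and their binding were not analysed here.

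Genes for proteins that bind these channels were also measured. Of 17 sodium channel partner genes, 1, 4 and 3 were higher and 11, 8 and 11 lower with the original hairpin and its 2-base and 5-base mutants. Over all genes 20.8%, 32.5% and 28.4% were higher and 19.5%, 30.8% and 26.5% lower. Fgf11, an intracellular fibroblast growth factor homologue that binds sodium channel tails, averaged 36.3 ± 2.66 CPM with the empty vector and 4.38 ± 0.538 with the 2-base mutant (-3.05 ± 0.10, edgeR adjusted p = 4.21e-16). Nedd4l, a ubiquitin ligase that removes sodium channels from the membrane, was lower with the 2-base mutant (-1.05 ± 0.042, edgeR adjusted p = 1.73e-15) and the original hairpin (-0.32 ± 0.041, edgeR adjusted p = 1.55e-06). Cntn1, a contactin that raises sodium channel levels at the membrane, was lower with the original hairpin (-0.68) and the 5-base mutant (-1.26). Gpd1l, which affects sodium channel trafficking, was lower with the original hairpin (-0.66 ± 0.039, edgeR adjusted p = 1.44e-11), and Dpysl2, a collapsin response mediator protein that binds sodium and calcium channels, with the 5-base mutant (-0.59 ± 0.042, edgeR adjusted p = 5.45e-11).

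Of 24 tested calcium channel partner genes, 4, 6 and 8 were higher and 7, 9 and 10 lower with the original hairpin and its 2-base and 5-base mutants. That is 16.7%, 25% and 33.3% higher and 29.2%, 37.5% and 41.7% lower, against the same shares of all genes. Erc2, an active zone scaffold, averaged 278 ± 6.5 CPM with the empty vector, 128 ± 1.86 with the original hairpin (-1.12 ± 0.041, edgeR adjusted p = 5.17e-15) and 52.7 ± 1.99 with the 2-base mutant (-2.40 ± 0.043, edgeR adjusted p = 3.23e-21). The transmembrane gamma family, first described as calcium channel subunits and known as AMPA receptor auxiliaries, changed in both directions. Cacng4 was higher with the original hairpin (0.24) and lower with the 2-base mutant (-2.27 ± 0.047, edgeR adjusted p = 3.06e-20) and the 5-base mutant (-1.27 ± 0.045, edgeR adjusted p = 5.16e-16). Cacng3 was lower with the original hairpin (-0.25), the 2-base mutant (-1.95) and the 5-base mutant (-1.18). Cacng2, or stargazin, was lower with each as well (-0.93, -1.07 and -1.42). Cacng7 was higher with the 2-base mutant (0.28) and lower with the 5-base mutant (-0.76). Cacng8 was lower with the original hairpin (-0.17) and higher with the 2-base mutant (0.38) and the 5-base mutant (0.42). Cacng5 was lower with the 5-base mutant (-0.39), and Cacng6 was not called in these comparisons. Stac, which slows L-type channel inactivation, was higher with the original hairpin, at 10.1 ± 2.35 against 2.41 ± 0.261 CPM (2.06 ± 0.17, edgeR adjusted p = 1.06e-08).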

How the data were processed

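Per the labels' protocols, total RNA was isolated with TRIzol and RNeasy, ribosomal RNA was depleted and directional (dUTP) libraries were made. Per the submitters' processing notes, the build was GRCm38.p6 and the tools were STAR 2.7.2b, featureCounts, edgeR, cutadapt 1.15, Trim Galore 0.6.0 and bcl2fastq 2.20.0.422. The deposited table holds the raw counts per Ensembl gene that the authors made. The annotation release, the strand option and the handling of multi-mapping reads were not given in the sources used here, so overlapping genes are uncertain, among them Cacna1s and Cacnb4. All 37 mitochondrial genes had 0 counts.

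Symbols, positions and exon lengths came from GENCODE vM21 (GRCm38). Of 55335 IDs, 54587 matched with their version, 55154 in all, and 181 did not match. Every library and column was used, and no library was a copy of another. After filterByExpr and TMM scaling, the 4 groups were fitted in a single robust quasi-likelihood model (edgeR 4.0.16, R 4.3.3). All 6 pairwise contrasts were tested 2-sided, with Benjamini-Hochberg adjustment over 19479 genes and a threshold of 0.05. The SE is the size of the log2 fold change divided by the square root of F. Levels per length are CPM per kilobase of the union of exons. The pipeline was tested on simulated data. Alternatives were DESeq2 1.42.0, RLE factors, no filter, protein-coding genes only, the 8 libraries compared, a replicate block and each library left out. Figures used matplotlib 3.10.9 in Python 3.11.15.

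The members, the lists of partner and marker genes and the rule for naming genes were chosen with earlier results of these data known. A few members and partner genes are not reported here, although counts over the lists include them. Values in every library are given for the other members changed by at least 1 log2 unit against the empty vector and for the highest member of each class per length, with others by mean and SD. Scn1a and Scn4b are also given by library. Of each partner list, up to 3 genes with the smallest p per comparison with the empty vector are named, and of the gamma family every gene called against the empty vector, a choice made after the values were seen. Promoters and microRNAs came from RefSeq tables, and motifs were searched on both strands.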

Additional observations from a re-analysis of the deposited data

Results flagged for a closer look

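A single library stood far from the other 3 of its group in 6 of 108 groups of 4 libraries, by a gap of more than 0.829 of the group's range, a limit that chance passes in about 1 in 20 groups. With the 2-base mutant, replicate 2 was low for Cacna1c at 139.9 CPM, where the others were at 145 CPM, and high for Scn4b at 3.25 CPM, where the others were at 0.235 to 0.709 CPM. With the original hairpin, Cacna1d was at 94.2 CPM in replicate 1 against 103 to 104 CPM and Scn2b at 196 CPM in replicate 2 against 189 to 189.8 CPM. With the empty vector, Scn2b was at 183 CPM in replicate 1 against 197 to 198 CPM, and Cacna2d4 at 0.834 CPM in replicate 2 against 0.618 to 0.632 CPM.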

How the results depend on the processing

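The counts of members called higher and lower stayed within 1.5 times of those reported under every alternative run and with any single library left out. Leaving out 1 library gave 2 to 3 higher and 14 to 15 lower for the original hairpin against the empty vector, 3 to 4 and 21 to 23 for the 2-base mutant, and 4 and 16 to 20 for the 5-base mutant. Of 174 log2 fold changes of single members, the direction and the call were the same for 167 with DESeq2, 171 with RLE factors, 163 without a filter, 170 with protein-coding genes only and 166 with the 8 libraries compared. The labels do not say that a replicate number marks a shared culture, and the correlations of same-numbered libraries, -0.022 to 0.27, were not all above 0.1, although 11 of 16 libraries correlated best with their own number. With a replicate block, 168 were the same and 6 more were called, among them Scn4b with the 5-base mutant (-2.10, edgeR adjusted p = 0.00109), and no call was lost. DESeq2 also called that change (-2.41, DESeq2 adjusted p = 0.0367).

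Directions reversed only for fold changes that were not called. Between the 2-base mutant and the original hairpin, Scn4b was -0.038 and 0.018 with DESeq2, and Scn8a was -0.0047, 0.0046 with DESeq2 and 0.0046 with RLE factors. With 1 library left out, that comparison ran from -0.068 to 0.032 for Cacna1a, -0.11 to 0.013 for Cacna2d1, -0.12 to 0.017 for Scn1a, -1.43 to 1.27 for Scn4b and -0.033 to 0.014 for Scn8a. For the original hairpin against the empty vector the ranges were -0.029 to 0.024 for Cacnb2, -2.11 to 0.43 for Scn4b and -0.069 to 0.16 for Scn9a. For the 2-base mutant Scn4b ran from -2.23 to 0.39, and for the 5-base mutant Cacna1h ran from -0.011 to 0.064 and Cacna2d4 from -0.062 to 0.22. Scn2a ran from -0.0027 to 0.084 between the 5-base mutant and the original hairpin. The causes were not tested. Depth limits the members under 1 CPM, which rest on few counts per library.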

Other observations

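Other cation channels and the repressor complex of neuronal genes were also measured. Of 10 tested genes of related cation channels, 3, 6 and 2 were higher and 2, 3 and 6 lower with the original hairpin and its 2-base and 5-base mutants, where 20.8%, 32.5% and 28.4% of all genes were higher and 19.5%, 30.8% and 26.5% lower. Tpcn1, an endolysosomal cation channel of the same superfamily, averaged 41.5 ± 2.78 CPM with the empty vector, 10.4 ± 0.213 with the 2-base mutant (-1.99 ± 0.063, edgeR adjusted p = 3.60e-17) and 12.8 ± 0.998 with the 5-base mutant (-1.70 ± 0.062, edgeR adjusted p = 9.07e-16). Unc80, an auxiliary subunit of the sodium leak channel, was lower with the original hairpin (-0.60) and the 2-base mutant (-1.13). Fam155a, another subunit of that channel, was lower with the 5-base mutant (-0.95 ± 0.047, edgeR adjusted p = 1.52e-13). Among the hyperpolarisation-activated channels, Hcn3 was higher with the 2-base mutant (0.51), Hcn2 with the original hairpin (0.21), and Hcn4 was lower with the 5-base mutant (-0.80).

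REST is a repressor that keeps channel genes silent outside neurons, and 8 genes of its complex were measured. With the original hairpin and its 2-base and 5-base mutants 3, 2 and 6 of them were higher and 1, 5 and 0 lower. The shares over all genes are those given above, and the 2 of 8 that were higher with the 2-base mutant, 25%, lay below theirs. Rest itself averaged 6.69 ± 0.28 CPM with the empty vector. Its log2 fold change was -0.36 ± 0.12 (edgeR adjusted p = 0.00959) with the 2-base mutant, and it was not called with the original hairpin (-0.024) or the 5-base mutant (0.17). Ehmt2, a histone methyltransferase, was higher with the original hairpin (0.33), the 2-base mutant (0.30) and the 5-base mutant (0.56). The deacetylase gene Hdac2 was lower with the 2-base mutant (-0.54 ± 0.047, edgeR adjusted p = 9.55e-10) and higher with the 5-base mutant (0.38 ± 0.046, edgeR adjusted p = 3.41e-07). Rcor1, a corepressor, was higher with the original hairpin (0.44), Kdm1a, a demethylase, with the 2-base mutant (0.40), Sin3a with the original hairpin (0.25), and Hdac1 with the 5-base mutant (0.49).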
